A study of Mus musculus with 8 samples.

Results

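The genes described here build and run the traffic of newly made proteins through the endoplasmic reticulum (ER) and from there to the Golgi. They were chosen by name from the rows of the count table: gene symbols that begin with Sec, Trappc or Tmed followed by a digit, the COPI coat genes Copa to Copz2, the numbered Arf genes and the Ergic genes. The rule took 73 of 25655 gene rows. Of these, 67 code for transport proteins, and 6 rows, Sec1 and 5 Sec14l genes, share only the letters of the name. The rule uses names alone, but it was chosen with earlier results of these data known.

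RNA came from the gastrocnemius, the large calf muscle, of male wild-type mice, sampled on Day 4. The sepsis group held 3 libraries from mice that received cecal slurry, bowel contents in suspension that seed a mixed bacterial infection of the abdomen, and the control group held 5 libraries from mice given 10% glycerol. The labels do not say that each library is a separate animal, and the p-values then describe the scatter among these libraries alone, which may be technical. Libraries were made with a QuantSeq 3′ kit, which sequences the tail end of each polyadenylated transcript, and counts were used without a length correction.

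Proteins bound for secretion, for membranes or for the lumen of the pathway enter the ER through the Sec61 channel, and signal peptidase removes their leading peptide. They leave in vesicles coated by COPII, pass through the ER-Golgi intermediate compartment, and are tethered and fused at the Golgi with the help of TRAPP and SNARE proteins. COPI vesicles, assembled on the small GTPase ARF1, carry receptors and escaped residents back. Muscle uses this route for its membrane receptors, for the proteins of the basement membrane and for secreted signalling proteins.

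Library totals ran from 3086277 to 4016329 reads. The members took 0.254% to 0.284% of the reads of septic libraries and 0.163% to 0.172% of those of control libraries, while the mitochondrially encoded genes took 12.6% to 16.9% in sepsis and 21.7% to 26.7% in control. Levels are therefore given as CPM, reads per 1e6 reads of the library, after TMM scaling, which corrects for the share taken by a few very abundant transcripts, with a scaling factor of 1.13 to 1.297 in sepsis and 0.887 to 0.909 in control. Markers of muscle fibres summed to 60594 to 84450 CPM in sepsis and 132594 to 155828 CPM in control, and all 9 fell. Fibroblast markers summed to 315 to 489 CPM in sepsis and 1348 to 2869 CPM in control, and 7 of 8 fell. Tendon markers summed to 9.32 to 23.6 CPM in sepsis and 140.4 to 224.8 CPM in control, and 4 of 5 tested fell. Macrophage markers summed to 311 to 523 CPM in sepsis and 77.4 to 192 CPM in control, with 6 of 8 tested higher. Neutrophil markers summed to 66.5 to 147 CPM in sepsis and 0.300 to 1.27 CPM in control, with 4 of 4 tested higher. The lymphocyte markers Cd4 and Cd79a had no read in any library, and the lymphocyte list summed to at most 0.837 CPM in sepsis and 0.900 CPM in control. Endothelial markers summed to 129 to 192 CPM in sepsis and 122 to 131 CPM in control, with 4 of 7 higher and 1 lower. Smooth muscle and pericyte markers summed to 182 to 194 CPM in sepsis and 254 to 322 CPM in control, and 3 of 5 fell. Schwann cell markers summed to 17.2 to 28.0 CPM in sepsis and 39.3 to 102 CPM in control, and 2 of 3 tested fell. Of the satellite cell and adipocyte markers, 1 and 3 were tested and did not pass. The part of these cell types in the results below was not tested. In such bulk samples fewer cells of a type and less RNA per cell cannot be told apart.

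The secretory transport genes did not move as a block in septic muscle. Of the 60 members with enough reads for the test, 16 rose, 12 fell and 32 did not pass, at an adjusted p under 0.05 in edgeR's quasi-likelihood test. Members called in either direction were 46.7% of those tested, beside 50.4% of all 9810 genes tested. The higher calls made up 26.7% of the members and 25.2% of all genes, and the lower calls made up 20.0% of the members and 25.2% of all genes. All 3 septic libraries lay above all 5 controls for 16 members, 26.7% beside 23.1% of all genes, and below them for 12 members, 20.0% beside 24.3%. These shares were near the background. With library totals in place of TMM scaling the split was 30 higher and 4 lower. That scaling placed the median of all genes at 0.43 on the log2 scale, compared with 0.01 under TMM. The share of all genes called under library totals was not computed, so this split has no background beside it. The median over the members was 0.13 under TMM and 0.54 under library totals, so its distance from the median of all genes was 0.11 under both. That distance was 0.06 without control library 2 and 0.17 without control library 1.

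Of the 16 higher calls, 9 held in all 14 alternative settings of scaling, filter, test and left-out library: Sec62, Sec63, Sec23ip, Sec24b, Sec31a, Tmed10, Copb2, Arf1 and Trappc12. Of the 12 lower calls, Sec61b, Copz2, Trappc2 and Sec14l5 held in all 14. Septic library 2 was the lowest septic library for all 9 stable higher genes and for 13 of all 16 higher genes. Among the 12 lower genes it was the lowest for 1 and the highest for 5. This order was not counted over all genes. Septic library 2 also had the largest scaling factor, 1.297, the highest macrophage sum, 523 CPM, and the lowest muscle fibre sum, 60594 CPM. Whether these values go with its order among the called genes was not tested.

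**Figure D1:**
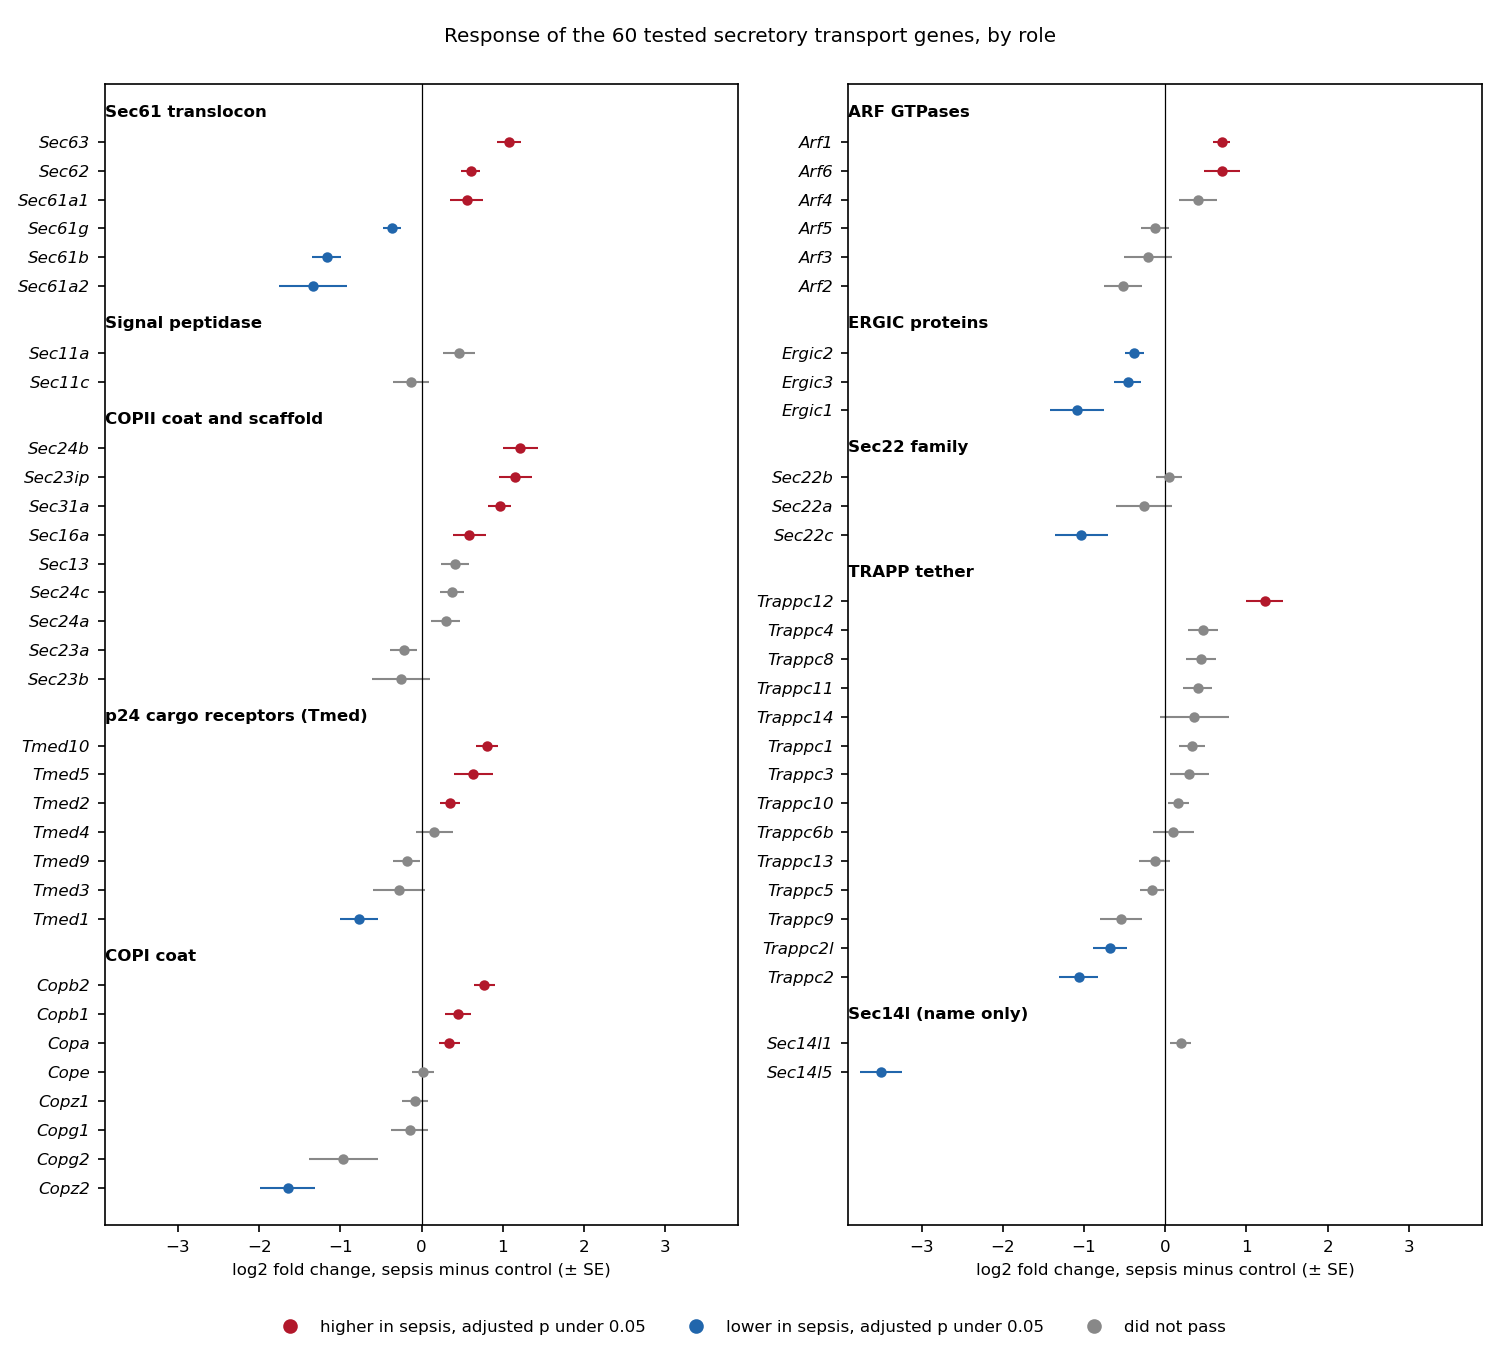
Log2 fold change of each of the 60 tested members, sepsis minus control, grouped by role, with bars of 1 SE from edgeR's test (3 septic and 5 control libraries). Red points are the 16 members called higher, blue points the 12 called lower and grey points the 32 that did not pass. COPII calls lie on the right, the 3 ERGIC genes on the left, and the translocon and COPI groups hold calls on both sides.

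Promoter sequence was examined because some coat and GTPase genes were called higher, although the members did not move as a block. The letters TGACGTGG, the unfolded protein response element, were searched as a known binding sequence of XBP1 and ATF6, factors that induce ER genes. Binding by these or by other factors was not measured. RefSeq promoters of build GRCm38.p6, from 250 bases before to 50 bases after the annotated start, were available for 61 members and were searched on both strands. The element was present in 6 of the 61 (9.84%), beside 193 of 27025 genes with a promoter (0.714%). Among the 51 members that also had enough reads for the test it was in 4 (7.84%). The 27025 genes were not limited to tested genes. The 6 windows are printed 5′ to 3′ on the strand of the gene, with the element in capitals; CCACGTCA is the same element read on the other strand.
Arf1: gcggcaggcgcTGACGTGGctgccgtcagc
Copb1: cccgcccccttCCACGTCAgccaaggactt
Copb2: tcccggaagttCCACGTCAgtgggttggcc
Sec23a: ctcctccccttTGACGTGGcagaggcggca
Sec24d: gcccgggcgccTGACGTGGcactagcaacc
Sec16b: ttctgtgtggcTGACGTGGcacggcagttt
In GRCm38.p6 the windows lie at chr11:59228228-59228257 on the minus strand for Arf1, at chr7:114254690-114254719 on the minus strand for Copb1, and at chr9:98563713-98563742 on the plus strand for Copb2. The Sec23a window lies at chr12:59011993-59012022 on the minus strand, that of Sec24d at chr3:123267459-123267488 on the plus strand, and that of Sec16b at chr1:157506741-157506770 on the plus strand. The element begins before the annotated start in Copb1, Copb2, Sec24d and Sec16b and 6 bases after it in Sec23a. Arf1 has more than 1 annotated start, and its element lies 84 bases before a downstream start and 21 bases after an upstream start. Of these 6 genes, Arf1, Copb1 and Copb2 rose, Sec23a did not pass the test, and Sec24d and Sec16b had too few reads for it. Over all genes tested, 25.2% were called higher, and the Copb1 call was lost without any of several single libraries, as given below. The element was also in 4 of 82 genes of the same route outside the name rule (4.88%). How those genes and the other genes with the element moved was not examined, so a link between element and change was not tested. The longer ER stress elements, ERSE and ERSE-II, were in 0 of the 61 windows, beside 0.137% and 0.0444% of all promoters. A match of letters is a description and does not show binding.

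At the ER membrane the 6 translocon genes split evenly: the accessory subunits Sec62 and Sec63 and the channel subunit Sec61a1 rose, while the channel paralog Sec61a2 and the small subunits Sec61b and Sec61g fell. Sec63, which couples the channel to the lumenal chaperone BiP, had 93.0, 72.2 and 88.5 CPM in septic libraries 1 to 3, against 44.5, 37.8, 45.9, 30.6 and 41.3 CPM in control libraries 1 to 5. Every septic library lay above every control. The difference was 2.10-fold, a log2 fold change of 1.07 (SE 0.15), with an edgeR adjusted p = 4.79e-05. Sec62, its partner in bringing finished chains to the channel, had 217, 197 and 266 CPM in sepsis, against 139, 138, 157, 157 and 153 CPM in control. The groups did not overlap, and Sec62 rose by a log2 fold change of 0.61 (SE 0.12, edgeR adjusted p = 0.000789).

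Sec61b, a tail-anchored subunit of the channel, went the other way. It had 16.2, 14.6 and 17.96 CPM in sepsis, against 31.2, 45.6, 33.3, 41.8 and 31.4 CPM in control, so the highest septic library was below the lowest control. Its log2 fold change was −1.17 (SE 0.18, edgeR adjusted p = 0.000118), a level 2.25-fold lower in sepsis. Sec61g, the other small subunit, had 128, 136 and 149 CPM in sepsis, against 168, 162, 184, 193 and 179 CPM in control. It fell by 0.36 on the log2 scale (SE 0.11, edgeR adjusted p = 0.0129), but with library totals alone its log2 fold change was 0.05 in the opposite direction.

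The channel-forming subunit itself is coded by a pair of genes called in opposite directions, although the share of Sec61a1 in their reads, given below, did not pass its own test. Sec61a1 had 24.1, 24.3 and 43.0 CPM in sepsis, against 20.5, 22.8, 20.1, 22.0 and 18.4 CPM in control, and septic library 3 stood well above the other septic libraries. Its log2 fold change was 0.55 (edgeR adjusted p = 0.0328), and the call was lost without septic library 3, where the log2 fold change was 0.22, and without control library 1, 3 or 5. Sec61a2 had 4.503, 2.51 and 1.59 CPM in sepsis, against 3.32, 5.002, 9.60, 7.92 and 10.2 CPM in control, and the groups overlapped. Its log2 fold change was −1.34 (SE 0.42, edgeR adjusted p = 0.0182). That call was lost without septic library 2 or 3, where the values ran from −1.25 to −1.05 and with library totals alone (−0.92).

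The catalytic subunits of signal peptidase did not pass the test. Sec11a had 16.2, 16.7 and 23.4 CPM in sepsis, against 10.5, 15.01, 15.6, 11.9 and 15.2 CPM in control, with a log2 fold change of 0.46 (SE 0.20, edgeR adjusted p = 0.0679). Sec11c had 17.0, 9.21 and 13.6 CPM in sepsis, against 13.8, 17.8, 14.7, 13.7 and 12.1 CPM in control, with a log2 fold change of −0.13 (SE 0.22, edgeR adjusted p = 0.642).

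Among the COPII genes, whose products bend the ER membrane and gather cargo at exit sites, 4 of 9 tested rose and the other 5 did not pass. Over all genes tested, 25.2% were called higher and 25.2% lower. The same shares apply beside the counts of every other role group and list given here. Whether any of these small groups differs from them was not tested. The median log2 fold change of the 9 COPII genes was 0.41, beside 0.01 for all genes. Summed over the 12 COPII rows, the level was 248 to 364 CPM in sepsis and 204 to 218 CPM in control. The 4 that rose come from the inner coat, the outer coat and the exit site scaffold.

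Sec31a, the larger protein of the outer cage, had 89.3, 71.1 and 110.1 CPM in sepsis, against 47.8, 44.4, 47.7, 48.6 and 42.6 CPM in control. The controls lay within a narrow band well below the lowest septic library. The difference was 1.95-fold, a log2 fold change of 0.96 (SE 0.14, edgeR adjusted p = 8.60e-05). Sec24b, a cargo-binding protein of the inner coat, had 19.6, 13.6 and 22.7 CPM in sepsis, against 9.40, 7.50, 9.30, 7.20 and 6.35 CPM in control. It rose 2.32-fold, with a log2 fold change of 1.22 (SE 0.22, edgeR adjusted p = 0.000424) and no overlap between groups. Sec23ip, a protein that binds the inner coat at exit sites, had 43.4, 31.6 and 55.9 CPM in sepsis, against 16.03, 19.4, 19.8, 16.9 and 25.7 CPM in control. It rose 2.23-fold, a log2 fold change of 1.16 (SE 0.20, edgeR adjusted p = 0.000337), again without overlap.

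Sec16a, the scaffold that marks ER exit sites, had 18.01, 17.99 and 18.9 CPM in sepsis, against 11.6, 14.4, 8.70, 16.2 and 10.2 CPM in control. The 3 septic libraries were close together and above all controls, with a log2 fold change of 0.59 (edgeR adjusted p = 0.0279). The call was lost without control library 1, 3 or 5 and without septic library 1 or 3, with values from 0.48 to 0.59.

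The other 5 tested COPII genes did not pass. Sec23a, the abundant GTPase activator of the inner coat, had 45.6, 32.2 and 57.5 CPM in sepsis, against 51.7, 48.5, 48.0, 54.0 and 60.7 CPM in control. Its log2 fold change was −0.22 (SE 0.17, edgeR adjusted p = 0.299), and without septic library 3 it passed at −0.44. Sec13, the smaller outer cage protein, had 37.9, 25.7 and 42.5 CPM in sepsis and 23.1 to 29.7 CPM in control, with a median control of 27.0 CPM, and it passed without septic library 2, at a log2 fold change of 0.61. Sec24c, a close relative of Sec24d, had 29.7, 28.9 and 36.4 CPM in sepsis, all above the controls at 20.3 to 27.0 CPM, and its log2 fold change of 0.38 gave an edgeR adjusted p = 0.0513. It passed without septic library 2, at 0.44. Sec24a and Sec23b did not pass, at log2 fold changes of 0.30 and −0.25. Sec24d, Sec31b and Sec16b were below the expression filter, with 15 reads of Sec24d in the 3 septic libraries and 25 in the 5 control libraries, and 20 and 11 reads of Sec31b.

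**Figure D2:**
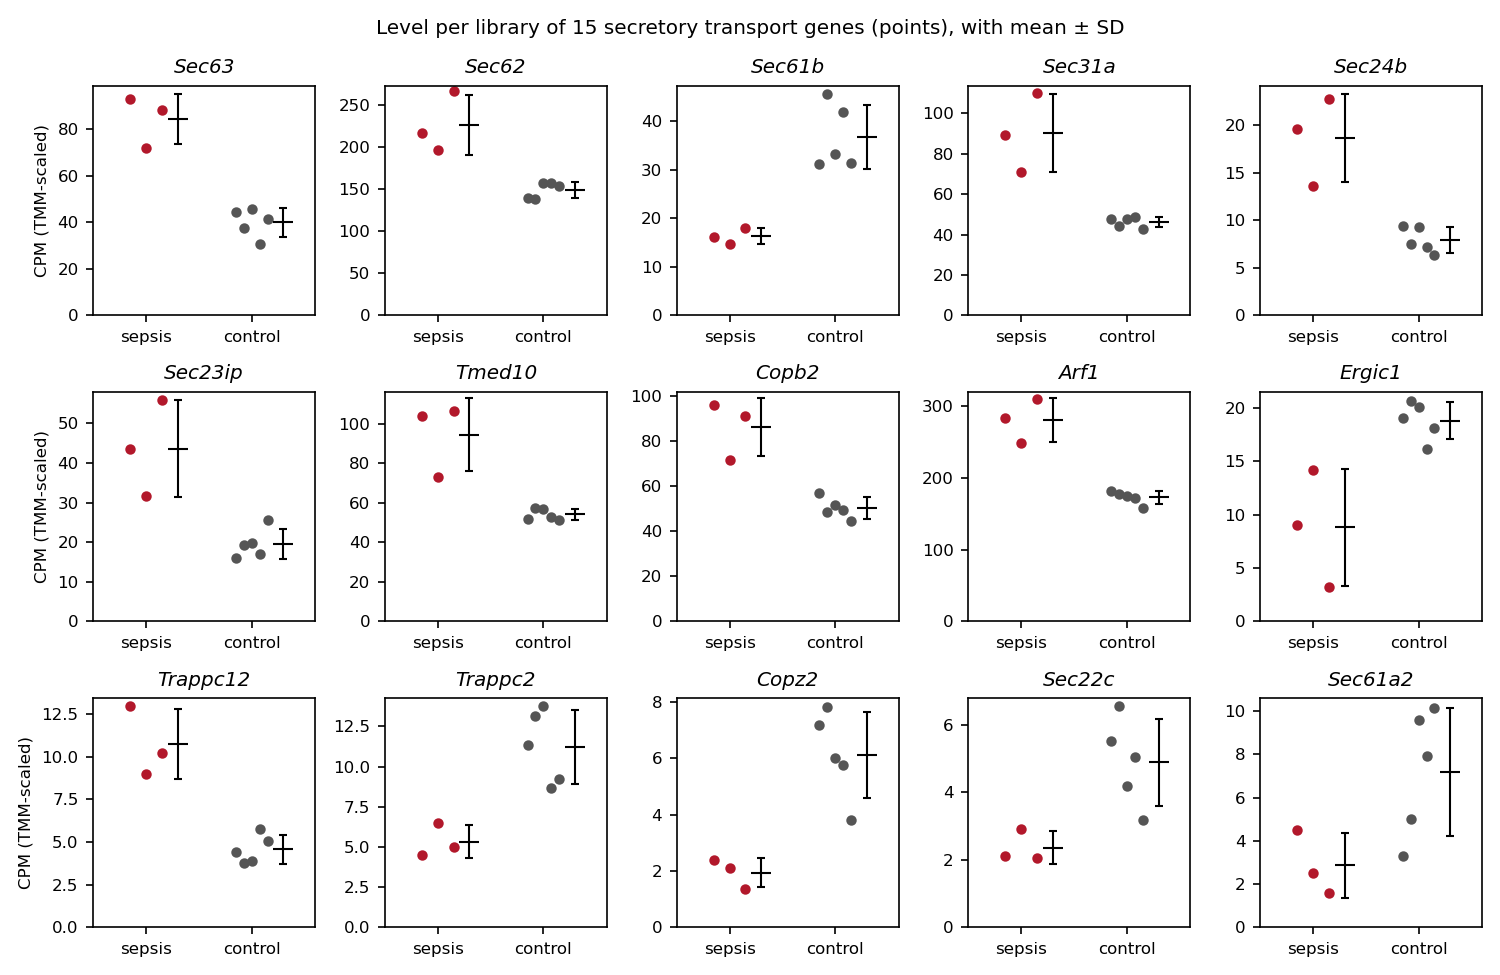
Level of 15 members in every library, in TMM-scaled CPM on axes that start at 0, with 3 septic libraries (red, left) and 5 control libraries (grey, right) and the mean ± SD beside each group. Sec62, Sec63, Sec31a, Sec24b, Sec23ip, Tmed10, Copb2, Arf1 and Trappc12 show septic points above every control point. Sec61b, Copz2, Trappc2, Ergic1 and Sec22c show septic points below every control point, and the groups overlap for Sec61a2.

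The p24 proteins, coded by the Tmed genes, cycle between the ER and the Golgi and take lipid-anchored cargo into COPII vesicles. Of the 7 tested, 3 rose, 1 fell and 3 did not pass. Tmed10, which forms complexes with other p24 proteins, had 104, 73.0 and 106 CPM in sepsis, against 52.0, 57.5, 57.0, 52.6 and 51.1 CPM in control. The groups did not overlap, and the level was 1.74-fold higher, a log2 fold change of 0.80 (SE 0.14, edgeR adjusted p = 0.000291). Its partner Tmed2 had 84.2, 77.2 and 75.7 CPM in sepsis, against 62.2, 63.8, 53.7, 58.0 and 72.4 CPM in control. Tmed2 was above the controls in every septic library, with a log2 fold change of 0.35 (SE 0.12, edgeR adjusted p = 0.0298).

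The remaining p24 calls were less secure. Tmed2 lost its call without control library 1, 2, 3 or 4 or septic library 1 (0.30 to 0.36) and with upper-quartile scaling (0.30). Tmed5 had 22.0, 20.9 and 29.8 CPM in sepsis, against 20.5, 12.5, 21.6, 11.9 and 10.8 CPM in control. Its groups overlapped, and its log2 fold change of 0.64 (edgeR adjusted p = 0.0414) was lost without control library 2, 4 or 5 or septic library 1 or 3 (0.46 to 0.70) and with upper-quartile scaling (0.59). Tmed1 fell: it had 8.74, 8.37 and 6.14 CPM in sepsis, against 14.1, 11.3, 16.8, 9.36 and 14.3 CPM in control. Its log2 fold change was −0.77 (edgeR adjusted p = 0.0138), and the call was lost without septic library 3 (−0.63) and with library totals alone (−0.35). Tmed3, Tmed4 and Tmed9 did not pass, at log2 fold changes of −0.28, 0.16 and −0.18. Tmed7 was below the filter, with 14 reads over the 3 septic libraries and 3 reads over the 5 control libraries.

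Of the 8 COPI coat genes, which code for the coatomer that forms return vesicles, 3 rose, 1 fell and 4 did not pass. Copb2, the β′ subunit that binds retrieval signals and carries the element shown above, had 95.9, 71.6 and 91.2 CPM in sepsis, against 57.2, 48.8, 51.9, 49.3 and 44.5 CPM in control. Every septic library lay above every control, and the difference was 1.71-fold, a log2 fold change of 0.77 (SE 0.13, edgeR adjusted p = 0.000298). Copa, the α subunit, had 115, 88.1 and 129.6 CPM in sepsis, against 91.2, 92.2, 83.1, 87.2 and 83.8 CPM in control. Septic library 2 lay inside the control range, and the log2 fold change was 0.34 (SE 0.13, edgeR adjusted p = 0.0418). That call was lost when any of the 5 controls, septic library 1 or septic library 3 was left out, with values from 0.22 to 0.36, and also in DESeq2 (0.35) and with upper-quartile scaling (0.29). Copb1, the β subunit, had 39.2, 29.9 and 39.6 CPM in sepsis, against 26.5, 27.2, 31.8, 21.6 and 24.8 CPM in control. The groups overlapped at septic library 2, the log2 fold change was 0.45 (edgeR adjusted p = 0.0299), and the call was lost without control library 1, 2, 4 or 5 or septic library 1 or 3 (0.38 to 0.46).

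The subunit with the largest change in the coat was ζ2. Copz2, the less abundant of the paralogs for the ζ subunit, had 2.38, 2.09 and 1.36 CPM in sepsis, against 7.19, 7.82, 5.999, 5.76 and 3.81 CPM in control. These values rest on 25 reads over the septic libraries and 99 over the control libraries. The groups did not overlap, the level was 3.13-fold lower, and the log2 fold change was −1.65 (SE 0.34, edgeR adjusted p = 0.00120). Copz1 had 20.9, 22.0 and 26.4 CPM in sepsis, against 25.4, 22.5, 20.7, 24.9 and 28.9 CPM in control, which overlapped throughout. Cope and Copg1 did not pass, at log2 fold changes of 0.02 and −0.15. Copg2 had 1.32, 2.30 and 4.55 CPM in sepsis, against 8.85, 2.81, 5.70, 5.04 and 4.45 CPM in control, and at −0.97 it did not pass (edgeR adjusted p = 0.0756). It passed without control library 2 (−1.13) or without septic library 3 (−1.53).

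Of the 6 ARF GTPases, 2 rose and 4 did not pass. Arf1, which recruits coatomer to Golgi membranes, had the highest mean CPM of the 73 members in sepsis and, after Sec61g, the next highest in control: 284, 249 and 311 CPM in sepsis, against 182, 178, 175, 173 and 158 CPM in control. The gap between the groups was wider than the spread within either, and the level was 1.62-fold higher, a log2 fold change of 0.70 (SE 0.11, edgeR adjusted p = 0.000114). Arf6, which acts at the plasma membrane and in endosomes rather than in the early secretory route, had 25.7, 27.4 and 29.6 CPM in sepsis, against 23.8, 21.9, 13.2, 14.0 and 11.7 CPM in control. It also lay above every control, at a log2 fold change of 0.70 (edgeR adjusted p = 0.0187), and lost its call without control library 3 (0.61).

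The other ARF genes did not pass the test. Arf5 had 42.4, 27.4 and 31.2 CPM in sepsis, against 33.7, 32.8, 35.1, 47.9 and 34.0 CPM in control (log2 fold change −0.13, SE 0.18, edgeR adjusted p = 0.573). Arf4 had 11.7, 14.6 and 25.7 CPM in sepsis, against 13.0, 11.6, 14.7, 14.4 and 12.1 CPM in control, so septic library 3 alone stood out. It did not pass at 0.40 and did so without septic library 1, at 0.61. Arf2 had 7.68, 7.11 and 4.78 CPM in sepsis, all below the controls at 8.10 to 11.4 CPM, and its log2 fold change of −0.52 did not pass (edgeR adjusted p = 0.0754). Arf3 did not pass at −0.21.

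All 3 Ergic genes, which code for membrane proteins that cycle through the intermediate compartment, were called lower, although each call depended on the setting. Together they summed to 76.3 to 92.3 CPM in sepsis and 109.1 to 127.7 CPM in control. Ergic2 had 51.7, 59.0 and 65.0 CPM in sepsis, against 81.0, 74.7, 78.3, 71.7 and 75.3 CPM in control, without overlap. It fell by 0.38 on the log2 scale (SE 0.12, edgeR adjusted p = 0.0164), whereas with library totals alone its log2 fold change was 0.04 in the opposite direction. Ergic1 had 9.01, 14.2 and 3.18 CPM in sepsis, against 19.1, 20.6, 20.1, 16.2 and 18.1 CPM in control. The septic libraries were widely spread but all below the controls, with a log2 fold change of −1.09 (SE 0.34, edgeR adjusted p = 0.0183). Ergic3 had 15.6, 19.0 and 15.7 CPM in sepsis, against 27.6, 23.4, 22.8, 21.2 and 20.6 CPM in control, with a log2 fold change of −0.46 (SE 0.16, edgeR adjusted p = 0.0310).

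Without septic library 1 all 3 Ergic calls were lost, at log2 fold changes of −1.10 for Ergic1 and −0.30 for Ergic2, and within −0.46 to −0.39 for Ergic3, which also lost its call without control library 1 or 2 or septic library 3. With library totals alone Ergic1 stood at −0.65 and Ergic3 at −0.04, neither passing. Without an expression filter the calls of Ergic2 (−0.35) and Ergic3 (−0.43) were also lost.

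Of the Sec22 genes, Sec22b codes for the SNARE that drives fusion between ER and Golgi membranes. It had 20.9, 27.2 and 21.8 CPM in sepsis, against 24.1, 24.1, 17.996, 24.9 and 22.2 CPM in control, and its log2 fold change was 0.05 (SE 0.16, edgeR adjusted p = 0.829). Sec22c, a relative, had 2.12, 2.93 and 2.05 CPM in sepsis, against 5.53, 6.57, 4.20, 5.04 and 3.18 CPM in control. It was below every control, at a log2 fold change of −1.03 (SE 0.33, edgeR adjusted p = 0.0188), and lost its call without septic library 1 or 3 (−0.97 to −0.93) and with library totals alone (−0.61). Sec22a did not pass at −0.26.

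TRAPP, the tether that meets incoming vesicles and activates the GTPase RAB1, had calls for 3 genes. Of 14 tested subunits, 11 did not pass, 1 rose and 2 fell, and the summed level was 231 to 248 CPM in sepsis and 206 to 236 CPM in control. Trappc12, a subunit of the larger TRAPP assembly, had 13.0, 8.997 and 10.2 CPM in sepsis, against 4.42, 3.75, 3.90, 5.76 and 5.08 CPM in control. It rose 2.33-fold, a log2 fold change of 1.22 (SE 0.23, edgeR adjusted p = 0.000721), without overlap. Trappc2, a core subunit whose human gene is mutated in a skeletal dysplasia, had 4.503, 6.49 and 5.002 CPM in sepsis, against 11.3, 13.1, 13.8, 8.64 and 9.21 CPM in control. It was 2.09-fold lower, a log2 fold change of −1.06 (SE 0.24, edgeR adjusted p = 0.00244). Its relative Trappc2l had 22.3, 19.7 and 11.8 CPM in sepsis, against 27.9, 32.8, 23.995, 26.7 and 31.8 CPM in control, so all septic libraries were lower. Its log2 fold change was −0.68 (edgeR adjusted p = 0.0135) and fell short of the threshold with library totals alone (−0.26).

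The most abundant TRAPP genes did not pass. Trappc10 had 38.9, 36.2 and 39.8 CPM in sepsis, against 39.3, 31.6, 33.3, 34.6 and 32.4 CPM in control (log2 fold change 0.16, SE 0.13, edgeR adjusted p = 0.315). Trappc1 had 37.1, 32.6 and 39.6 CPM in sepsis, against 34.8, 27.5, 30.6, 20.5 and 30.8 CPM in control (log2 fold change 0.33, SE 0.17, edgeR adjusted p = 0.114). Several others sat close to the threshold. Trappc4 was above every control at 17.0, 18.4 and 25.7 CPM in sepsis and 11.998 to 16.5 CPM in control (0.47, edgeR adjusted p = 0.0507), and passed without septic library 1 or 2 (0.55 to 0.58). Trappc8 (0.44) passed without control library 5 or septic library 2, within 0.53 to 0.54, Trappc11 (0.40) passed without control library 3, at 0.50, and Trappc9 (−0.54) passed without control library 4, at −0.70. Trappc3, Trappc5, Trappc6b, Trappc13 and Trappc14 did not pass in edgeR, at log2 fold changes from −0.16 for Trappc5 to 0.36 for Trappc14.

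The largest change under the name rule belonged to a gene outside the transport machinery. Sec14l5, a member of a family of lipid-transfer-like proteins, had 1.06, 1.67 and 1.36 CPM in sepsis, against 13.5, 18.4, 15.9, 16.6 and 15.9 CPM in control. It was 11.3-fold lower in sepsis, a log2 fold change of −3.50 (SE 0.26, edgeR adjusted p = 2.93e-07). Its relative Sec14l1 had 52.7, 53.1 and 56.2 CPM in sepsis, against 54.5, 46.0, 40.5, 52.2 and 43.2 CPM in control, and did not pass (0.19, SE 0.13, edgeR adjusted p = 0.236). Sec1, a fucosyltransferase gene, and Sec14l2, Sec14l3 and Sec14l4 had too few reads to test. Without the name-only rows the count was 16 higher and 11 lower of 58 tested.

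Below the filter stood 13 members in all: Sec16b, Sec24d, Sec31b, Tmed6, Tmed7, Tmed8, Tmed11, Trappc3l, Trappc6a, Sec1 and the 3 Sec14l genes just named. Tmed11, Trappc3l and Sec14l3 had no read in any library, which allows a level of up to 0.628 to 0.795 CPM per septic library and 0.829 to 1.08 CPM per control library (3 reads, counting error only).

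Several members are paralogs, so the share of 1 paralog in the reads of its set was compared in 13 sets. Such a share does not depend on scaling. Sec22b made up 83.2%, 79.8% and 82.8% of Sec22 reads in sepsis, against 73.1%, 72.0%, 69.0%, 76.7% and 73.7% in control, means of 81.9% ± 1.86 (SD, n = 3) and 72.9% ± 2.79 (SD, n = 5). Arf1 made up 95.9% ± 1.27 of Arf1, Arf2 and Arf3 reads in sepsis (n = 3) and 91.7% ± 1.68 in control (SD, n = 5). Neither pair of groups overlapped, and the two-sided exact permutation test gave p = 0.01786 for each, the smallest that 56 splits allow, and an adjusted p = 0.116 over the 13 sets. Copz1 made up 89.8%, 91.3% and 95.1% of Copz reads in sepsis, against 78.0%, 74.2%, 77.5%, 81.2% and 88.3% in control, without overlap (exact permutation p = 0.0357, adjusted p = 0.155). Sec61a1 made up 90.4% ± 6.09 of Sec61a reads in sepsis (n = 3) and 74.7% ± 9.20 in control (SD, n = 5), with overlap (exact permutation p = 0.0536, adjusted p = 0.174). No set passed after adjustment, and the other 9 sets had exact permutation p from 0.0714 for the share of Sec24d to 0.929 for the share of Sec23b. With so few splits and 13 sets, a set could pass only if several sets had a low p. The lack of a pass therefore does not show that a share was unchanged.

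**Figure D3:**
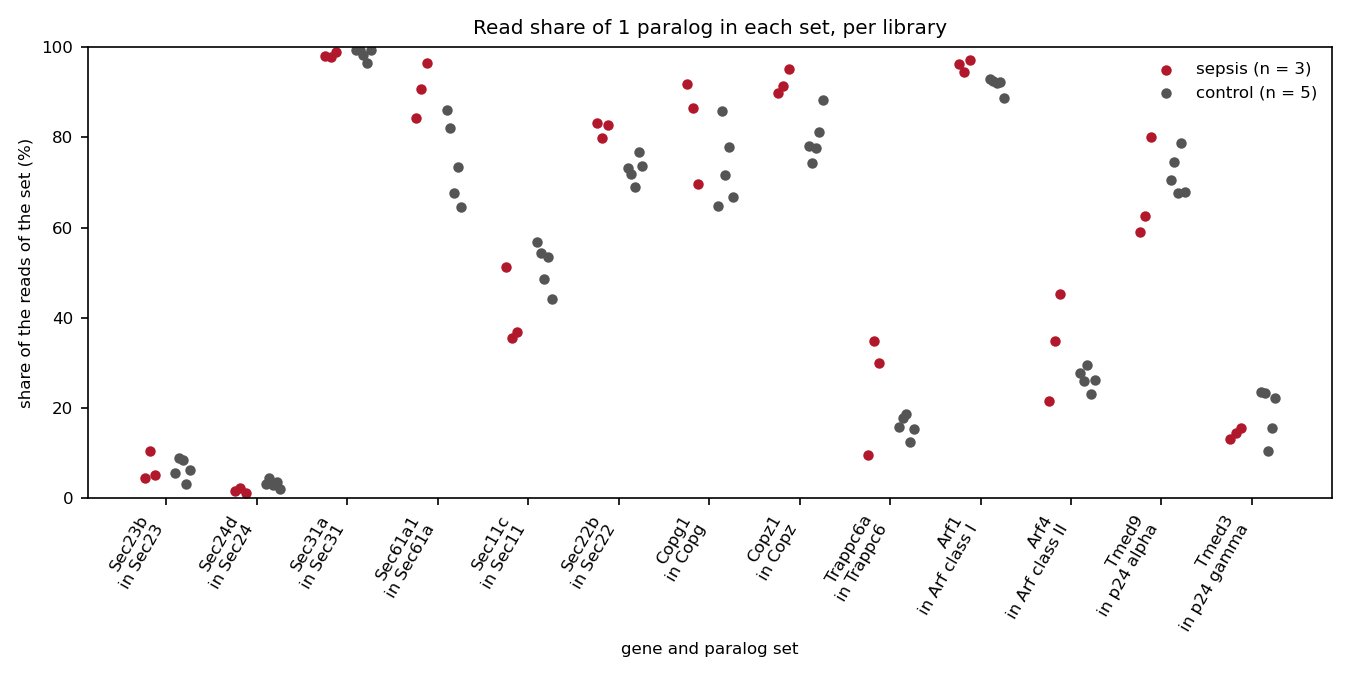
Share of the reads of each paralog set taken by the gene named on the axis, in percent, for 3 septic libraries (red, left) and 5 control libraries (grey, right). The septic points of Sec22b, Copz1 and Arf1 lie above every control point. None of the 13 sets passed the exact permutation test after adjustment, which with so few libraries a single set could not pass alone.

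Of 93 tested genes of the same route outside the name rule, in 6 lists, 26 rose, 19 fell and 48 did not pass, with a median log2 fold change of 0.12. The higher calls were 28.0% and the lower calls 20.4% of those tested, near the 25.2% of all genes in each direction. With library totals alone the split was 49 higher and 10 lower, without a share of all genes to set beside it. The GTPase SAR1, which starts COPII assembly, is coded by a pair of genes called in opposite directions. Sar1a had 107.5, 81.6 and 87.5 CPM in sepsis, against 56.7, 61.3, 52.2, 64.1 and 56.5 CPM in control, while Sar1b had 155.8, 109.6 and 129.2 CPM in sepsis, against 251.9, 242.6, 237.6, 207.8 and 242.3 CPM in control. Neither pair of groups overlapped, and the log2 fold changes were 0.66 for Sar1a (edgeR adjusted p = 0.000670) and −0.85 for Sar1b (edgeR adjusted p = 0.000115). Of the 11 COPII partners 3 rose and 2 fell, and Pdcd6, a calcium-binding protein of exit sites, was 2.55-fold higher (edgeR adjusted p = 0.000105).

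Among the 10 COPI partners, 3 rose and 7 did not pass. Arfgap3, which switches ARF1 off on COPI vesicles, had 31.5, 20.3 and 32.7 CPM in sepsis, against 5.25, 4.06, 4.20, 4.68 and 4.76 CPM in control, a 6.08-fold higher level (edgeR adjusted p = 6.73e-07). The KDEL receptors, which return ER residents, gave log2 fold changes of 0.45 for Kdelr1 (edgeR adjusted p = 0.0199) and 0.56 for Kdelr2 (edgeR adjusted p = 0.0219), while Kdelr3, with 22 reads over the septic and 41 over the control libraries, did not pass at −0.58 (edgeR adjusted p = 0.372). Kdelr1 did not pass without control library 5 or septic library 3 (0.27 to 0.42), nor Kdelr2 without control library 2 or 3 or septic library 1 or 3 (0.42 to 0.51). Arcn1, the δ subunit of the COPI coat, had 26.2 ± 4.66 CPM in sepsis and 20.0 ± 0.971 CPM in control (SD, n = 3 and n = 5) and did not pass (edgeR adjusted p = 0.0530), but passed without septic library 2 at a log2 fold change of 0.48.

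The cargo receptors, with 1 of 13 tested higher and 4 lower, held changes in opposite directions. Surf4, a receptor for soluble secreted proteins, had 135.6, 114.7 and 171 CPM in sepsis, against 54.2, 48.1, 49.2, 56.2 and 48.9 CPM in control, a 2.74-fold higher level (edgeR adjusted p = 2.08e-06). Lman1, the lectin that carries clotting factors in humans, had 35.2, 43.1 and 28.0 CPM in sepsis, against 96.8, 91.0, 94.8, 87.9 and 84.5 CPM in control. That was 2.56-fold lower (edgeR adjusted p = 6.82e-06), and the related Lman2l was 3.64-fold lower (edgeR adjusted p = 0.000171).

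Of the 27 tethers and SNAREs, 9 rose and 4 fell. The SNARE genes Bet1l and Use1 were 2.72-fold and 1.75-fold higher (edgeR adjusted p = 9.07e-05 and 8.32e-05), and Cog8, a subunit of the COG tether, was 2.02-fold lower (edgeR adjusted p = 0.000411). Of 23 translocation partners, 7 rose and 6 fell. The signal recognition particle genes were called in both directions. Srp68, Srp19, Srp9 and Srp14, named here after their values were seen, were higher, at log2 fold changes of 1.05, 0.75, 0.46 and 0.32, and their calls were not run under the alternatives. Srp54a and the receptor gene Srpr were 3.24-fold and 2.79-fold lower (edgeR adjusted p = 1.50e-06 and 6.92e-07), while the signal peptidase subunit Spcs3 was 2.99-fold higher (edgeR adjusted p = 1.56e-05).

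Of 9 tested factors that induce secretory genes, 3 rose and 3 fell. Xbp1 codes for a factor that can bind the element shown above. It had 45.0, 35.4 and 59.8 CPM in sepsis, against 30.1, 23.4, 21.0, 24.5 and 25.1 CPM in control. It was 1.88-fold higher (edgeR adjusted p = 0.000863); these counts do not tell spliced from unspliced Xbp1. Creb3l1, a factor that induces coat genes in collagen-secreting cells, had 1.59, 1.88 and 2.96 CPM in sepsis, against 6.36, 9.38, 9.60, 14.8 and 8.26 CPM in control, 4.39-fold lower (edgeR adjusted p = 0.000183). Its relative Creb3l2 had a log2 fold change of −1.04 (edgeR adjusted p = 0.00956), which did not pass with library totals alone (−0.61). The fibroblast and tendon marker sums given above were lower in the same libraries, and their part in the Creb3l1 and Copz2 values was not tested.

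**Figure D4:**
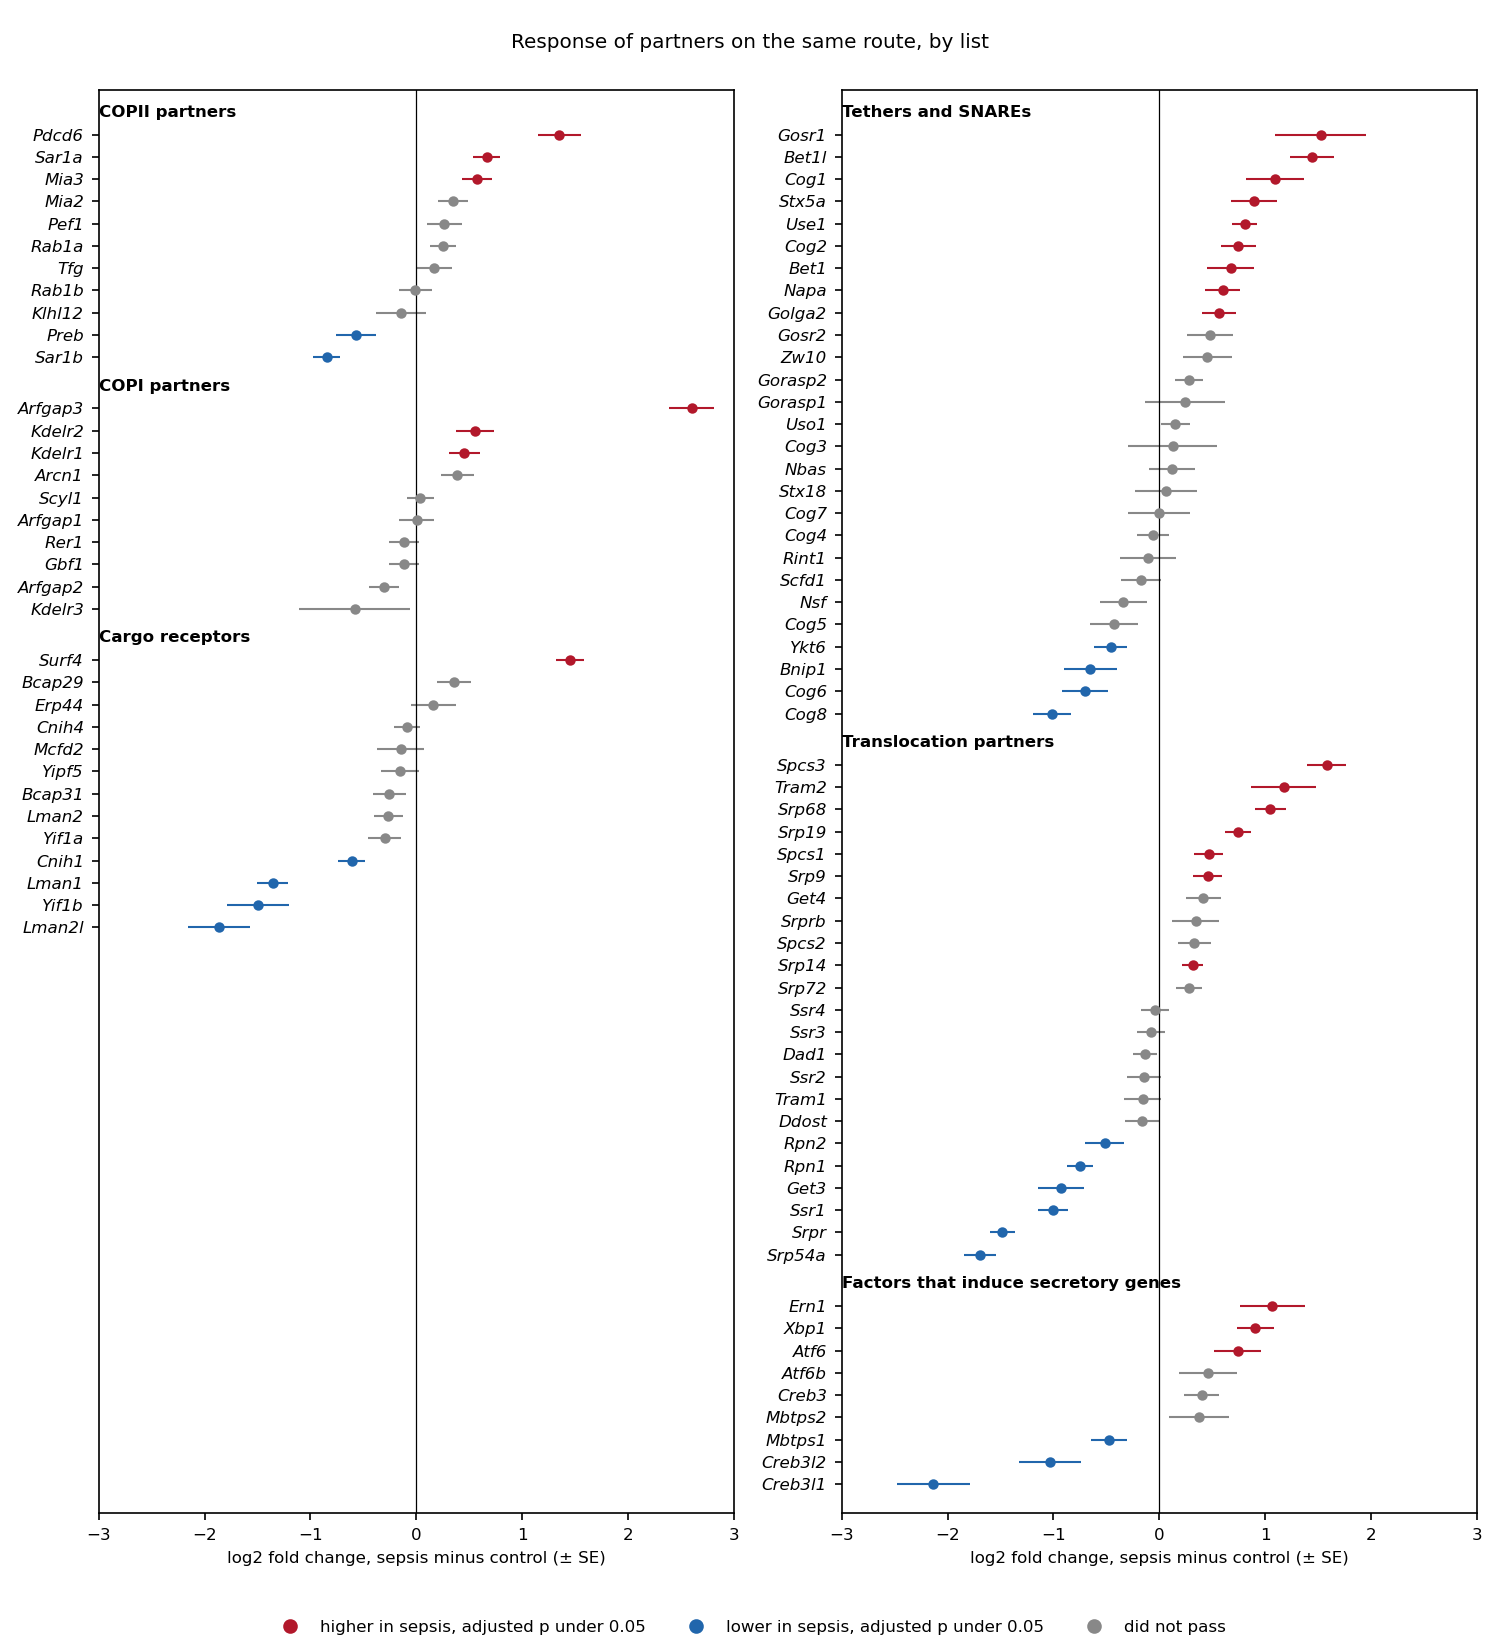
Log2 fold change of the 93 tested partners on the same route, sepsis minus control, in 6 lists, with bars of 1 SE from edgeR's test (3 septic and 5 control libraries). Red points are the 26 called higher, blue points the 19 called lower and grey points the 48 that did not pass; Arfgap3 lies farthest right and Creb3l1 farthest left.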

How the data were processed

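Polyadenylated RNA of 3 septic and 5 control gastrocnemius libraries was measured. QuantSeq 3′ libraries were made from 25 ng of column-purified total RNA, per the labels' protocols. The authors deposited whole-number read counts per gene, not normalized, 1 column per library. The build was GRCm39, per the submitters' processing notes; aligner, counter, strand setting and annotation are not given in the sources used here. Reads of overlapping or antisense genes and of close paralogs may therefore be split or shared.

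The counts were tested with edgeR 4.0.16 in R 4.3.3: expression filter (minimum count 10, minimum total 15), TMM scaling, robust quasi-likelihood F test over all 8 libraries without covariates, and Benjamini-Hochberg adjustment over 9810 genes at 0.05. The SE is the absolute log2 fold change divided by the square root of F. CPM were computed from the TMM-scaled library sizes. The script was run on simulated data with far fewer changed genes than were called here, so that run does not cover such broad change. Pairs of replicates differed by more than sampling noise (chi-square per degree of freedom 2.04 to 26.3). Alternatives were DESeq2 1.42.0, 4 other scalings, no filter, a replicate block, each library left out and, for the counts, no name-only rows. Paralog shares were tested by two-sided exact permutation.

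The members and lists were chosen with earlier results of these data known. Full statistics are given for the 12 called members with the largest change and the 2 most abundant of each role, and calls or values for other members; partners named are up to 3 called per list with the smallest p, plus Arcn1, Sar1a, Sar1b, Lman1, Surf4, Xbp1 and Creb3l2. Of the fixed partner names, 2 matched no row. Promoters come from RefSeq, build GRCm38.p6, and 12 members had no entry.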

Additional observations from a re-analysis of the deposited data

Results flagged for a closer look

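Among 73 gene levels and paralog shares in the 5 control libraries, 2 had a library far from the others, where chance flags about 1 group in 20. Arf5 in control library 4 was at 47.9 CPM, with the next control at 35.1 CPM. Arf1 made up 88.8% of Arf1, Arf2 and Arf3 reads in control library 5, with the next control at 92.1%.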

How the results depend on the processing

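Of 1185 recomputed fold changes (79 genes under 15 settings), 1050 kept their direction and their side of the threshold, 76 lost a call, 33 gained one and 26 reversed. With library totals alone, which shift all genes upward, the members split into 30 higher and 4 lower, the partners into 49 higher and 10 lower, and the member median was 0.54. That setting also turned log2 fold changes positive for Sec61g (0.0541), Sec11c (0.27), Sec23a (0.18), Sec23b (0.17), Sec22a (0.17), Copg1 (0.27), Copz1 (0.33), Arf3 (0.22), Arf5 (0.28), Tmed3 (0.14), Tmed9 (0.24), Ergic2 (0.04), Trappc5 (0.25) and Trappc13 (0.29). Cope reversed with upper-quartile scaling (−0.0271). Without the expression filter the median over 70 members was 0.19, since genes with few reads entered. The share of all genes called was computed under the main setting only, so the counts under other settings have no background. Leaving out 1 library at a time gave 11 to 20 higher and 8 to 13 lower members, 22 to 31 higher and 15 to 18 lower partners, and a member median of 0.0802 to 0.19, with 0.19 without control library 1. Over these omissions the log2 fold changes of 8 uncalled genes changed sign, within −0.34 to 0.0856 for Sec11c, −0.0754 to 0.11 for Sec22b, −0.16 to 0.11 for Cope, −0.29 to 0.0043 for Copg1, −0.33 to 0.0079 for Arf5, −0.0049 to 0.43 for Tmed4, −0.18 to 0.30 for Trappc6b and −0.18 to 0.71 for Trappc14. The difference in the Sec23b share ran from −1.666 to 1.34 percentage points.

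Same-numbered septic and control libraries deviated with r of −0.12, 0.04 and −0.02 across genes, and differently numbered ones with −0.09 to 0.13. These values do not show a pairing by number and cannot exclude one. With the replicate block 9 members were higher and 9 lower, and Copz1 reversed (0.0116). At this depth genes with few reads, such as the 13 members below the filter, could not be tested.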
